A study of Homo sapiens with 18 samples.

Results

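The data were searched for genes whose RNA was present in HEK293T cells although no ATAC-seq peak lay at the start of the gene. ATAC-seq inserts adapters with a transposase into accessible DNA, so that peaks of reads mark open chromatin. Of 14177 genes in the RNA table, 13697 were above 1 CPM (read count scaled to the size of its library) in at least 3 of the 6 RNA libraries and are called expressed here. Of these, 2084 (15.2%) had no peak of any of the 4 ATAC libraries within 1 kb of the start, the outer edge of the gene on its strand, and are called peak-free. A further 7243 (52.9%) had a peak there in every ATAC library and are called open, and 4370 (31.9%) had one in 1 to 3 libraries. The genes were thus chosen by the CPM values and the ATAC peaks, so both are given as descriptions without a test. A missing peak means only that none was called: if peaks needed a −log10 q of at least 5, 11382 expressed genes would count as peak-free.

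HEK293T is an established human embryonic kidney line that carries the SV40 large T antigen, and all groups share that background. UBR7 is a ubiquitin ligase of the UBR-box family that was studied here for its handling of histone H3. The UBR7KO group consists of HEK293T cells edited at UBR7 with CRISPR-Cas9, and the parental group of the unedited cells. ATAC-seq was done on 2 UBR7KO and 2 parental libraries. RNA-seq was done on 3 UBR7KO libraries, 2 of a line called KO1 and 1 of a line called KO2, and on 3 parental libraries. The labels do not name the UBR7KO line of the ATAC libraries, but their peak lists carry the same sample code as the RNA library labelled KO2. In further HEK293T cells the endogenous UBR7 was tagged with GFP by the same method, and 1 anti-GFP ChIP-seq library with 1 input library gave a list of GFP-UBR7 peaks. The labels do not say that the replicates were separate cultures, so p-values measure the spread between libraries, which may be technical, and bulk RNA does not tell fewer cells with a transcript from less transcript per cell.

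The active start of a gene transcribed by RNA polymerase II usually lies in a stretch without nucleosomes, which the transposase of ATAC-seq cuts readily. Many such starts in mammals lie in CpG islands, where the CG dinucleotide is kept at a higher frequency than elsewhere in the genome. A gene can have several starts, and an annotation that names the outermost one need not name the one in use. Small nucleolar RNAs are cut from the introns of host genes, and mitochondrial genes are transcribed from DNA that carries no nucleosomes.

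The RNA libraries held between 22153291 and 29811908 reads and the ATAC libraries 15310 and 45920 peaks in UBR7KO and 10507 and 38529 peaks in parental cells. Peaks covered 70.5% and 83.3% of expressed starts in the UBR7KO libraries and 55.5% and 80.8% in the parental libraries, so the lists differed in size more within a group than between groups. UBR7 itself was at 27.0 and 26.3 CPM in KO1 and 64.5 CPM in the library labelled KO2, against 55.0, 62.2 and 62.2 CPM in parental cells, so that library did not show the lower UBR7 RNA of KO1. The kidney progenitor markers PAX2, LHX1 and EYA1 were above the floor, and PAX2 was itself peak-free. None of the keratinocyte or endothelial markers looked for was in the table.

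Sequences before the start are shown for 5 peak-free genes that stand for the main kinds found below and for 1 open gene, all taken from coding genes whose span in RefSeq and in the RNA table differed by at most 5%. Each is the 250 bases before the RefSeq start in GRCh38.p14, read 5′ to 3′ on the strand of the gene, with every CG in capitals and, in SIN3A, TTTATA in capitals too, which is the motif TATAAA read on the other strand. HNRNPH1 (an RNA-binding splicing regulator, chr5:179634785-179635034, minus strand) was the most abundant of these whose promoter was poor in CG. SRSF10 (a splicing factor, chr1:23980328-23980577, minus strand) was the most abundant of these with no peak over the whole gene or 1 kb around it. CD99 (a cell surface glycoprotein, chrX:2691045-2691294, plus strand) came from the end of chromosome X, where there were no peaks at all. HNRNPL (an RNA-binding splicing regulator, chr19:38852348-38852597, minus strand) and SIN3A (the scaffold of a histone deacetylase complex, chr15:75455816-75456065, minus strand) each had a GFP-UBR7 peak. NPM1 (a nucleolar histone chaperone, chr5:171387599-171387848, plus strand) was the most abundant open gene of this selection.
HNRNPH1: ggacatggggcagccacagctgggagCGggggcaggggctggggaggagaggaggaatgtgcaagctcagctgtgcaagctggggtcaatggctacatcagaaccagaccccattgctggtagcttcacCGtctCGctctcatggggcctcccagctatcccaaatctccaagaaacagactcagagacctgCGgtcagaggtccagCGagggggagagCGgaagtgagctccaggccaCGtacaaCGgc
SRSF10: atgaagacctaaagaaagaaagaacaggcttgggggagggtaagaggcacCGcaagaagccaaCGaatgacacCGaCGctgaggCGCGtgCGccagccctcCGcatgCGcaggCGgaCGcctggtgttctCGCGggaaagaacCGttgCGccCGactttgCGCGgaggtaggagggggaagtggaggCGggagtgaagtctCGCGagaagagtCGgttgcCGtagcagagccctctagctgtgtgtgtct
CD99: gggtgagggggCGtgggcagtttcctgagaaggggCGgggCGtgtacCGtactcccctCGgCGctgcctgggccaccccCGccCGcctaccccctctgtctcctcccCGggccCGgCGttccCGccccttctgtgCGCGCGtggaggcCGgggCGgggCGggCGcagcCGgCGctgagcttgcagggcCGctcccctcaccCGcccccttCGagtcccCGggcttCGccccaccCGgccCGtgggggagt
HNRNPL: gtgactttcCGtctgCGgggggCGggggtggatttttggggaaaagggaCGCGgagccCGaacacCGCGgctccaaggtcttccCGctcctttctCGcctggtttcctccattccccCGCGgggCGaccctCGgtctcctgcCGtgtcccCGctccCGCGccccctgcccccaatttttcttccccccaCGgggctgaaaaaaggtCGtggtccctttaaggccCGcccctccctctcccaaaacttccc
SIN3A: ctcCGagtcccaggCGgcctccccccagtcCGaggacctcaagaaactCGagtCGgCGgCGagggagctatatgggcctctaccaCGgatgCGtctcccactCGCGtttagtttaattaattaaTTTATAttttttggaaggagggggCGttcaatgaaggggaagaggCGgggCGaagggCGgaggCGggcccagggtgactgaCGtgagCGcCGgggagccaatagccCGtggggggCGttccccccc
NPM1: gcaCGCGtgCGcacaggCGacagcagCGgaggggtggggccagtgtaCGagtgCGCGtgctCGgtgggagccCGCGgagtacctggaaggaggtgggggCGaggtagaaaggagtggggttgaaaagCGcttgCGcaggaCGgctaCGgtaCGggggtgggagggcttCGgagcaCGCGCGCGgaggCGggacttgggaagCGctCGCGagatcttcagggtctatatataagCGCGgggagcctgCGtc
The CG count was 8 in HNRNPH1, 23 in SRSF10, 28 in CD99, 21 in HNRNPL and 21 in SIN3A, against 29 in NPM1. HNRNPH1 stood apart from the other promoters shown, peak-free or open. In the authors' RefSeq list of gene starts, the nearest HNRNPH1 start was 11062 bp from the outer edge used here. A listed start of the gene lay under a peak, so the sequence shown need not be that of the start in use.

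Non-coding and repeated genes made up more of the peak-free genes than of the open ones. Protein-coding genes were 1532 of the 2084 peak-free genes (73.5%), against 6767 of the open genes (93.4%). The make-up of the set depended on the peaks and starts counted: with peaks of a −log10 q of at least 5 it was 89.6% coding at a median of 22.9 CPM, with the authors' replicate-intersected sets 82.0% and 8.83 CPM, and with the authors' own gene starts added 61.1% and 3.26 CPM. Of the 12340 expressed coding genes 12.4% were peak-free. Among non-coding classes the share was 84.8% of 33 sense-overlapping genes, 83.3% of 42 sense-intronic genes and 79.5% of 39 snoRNAs. It was 46.9% of 292 pseudogenes, 45.3% of 344 lincRNAs and 23.5% of 391 antisense genes. The snRNA class, the RNAs of the spliceosome and their copies, went the other way, with 1 of 22 genes peak-free and 15 open.

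**Figure D1:**
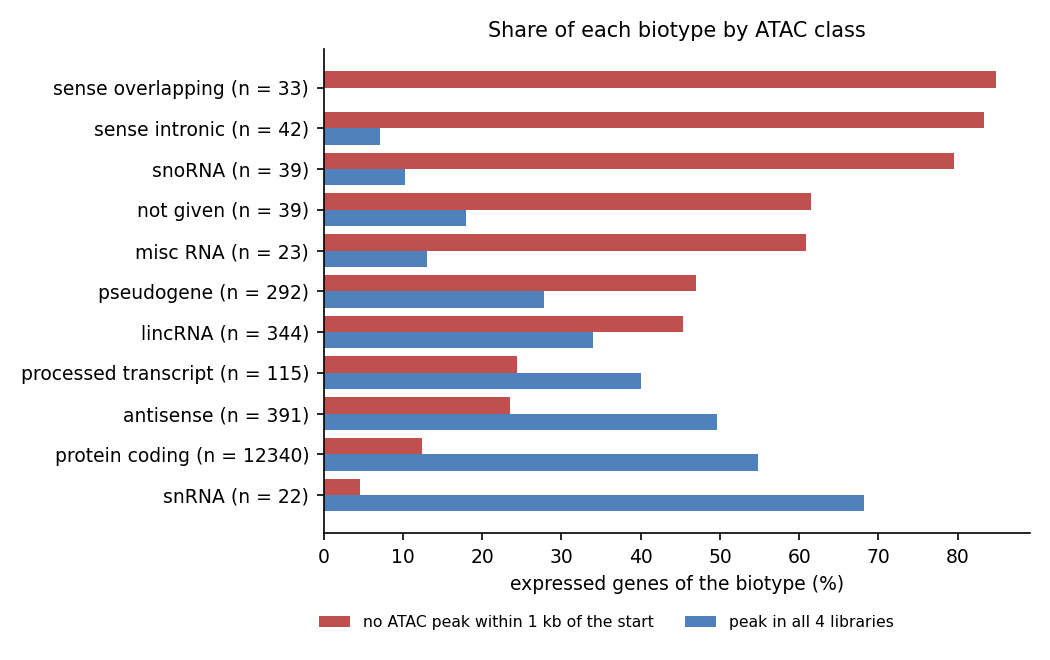
Bars give the share of expressed genes of each annotated biotype with at least 20 expressed genes (y axis, number of genes in brackets) that had no ATAC peak within 1 kb of the start (red) or a peak in all 4 libraries (blue), in percent on the x axis. The red bar is 12.4% for protein-coding genes and 84.8% for sense-overlapping, 83.3% for sense-intronic and 79.5% for snoRNA genes.

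The most abundant genes of these classes show what they hold. SNORA73B, a small nucleolar RNA of the H/ACA type, was at 449, 342 and 90.1 CPM in UBR7KO and 601, 346 and 107 CPM in parental libraries, and the nearest ATAC peak was 2034 bp away. SCARNA7, a small Cajal body RNA, was at 66.2, 131 and 167 CPM in UBR7KO and 84.0, 138 and 152 CPM in parental libraries, with the nearest peak 49557 bp away. For both genes the ranges of the groups overlapped. TUG1, a long non-coding RNA, was at 167, 188 and 138 CPM in UBR7KO and 180, 175 and 104 CPM in parental libraries, and its start was 1277 bp from a peak.

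Gene families differed widely. Of 45 small nucleolar and Cajal body RNAs 33 (73.3%) were peak-free, but none of the 14 snoRNA host genes was. Of 14 ribosomal protein pseudogenes 10 were peak-free and none was open, while 6 of 85 coding ribosomal protein genes (7.06%) were peak-free and 40 open. Reads of such pseudogenes can come from the parent gene, so their levels are uncertain. Of the 47 replication-dependent histone genes 5 (10.6%) were peak-free and 27 open. Genes with HOX symbols had 14 of 43 peak-free (32.6%) and 5 open (11.6%). They are the homeobox regulators of body axis identity together with antisense RNAs of their clusters, such as HOXB-AS3 and HOXA-AS2. HLA genes had 6 of 17 peak-free, collagens 7 of 28, solute carriers 37 of 225 and zinc finger genes 62 of 430 (14.4%). Of the 41 genes of recently duplicated families such as NBPF and GOLGA 21 (51.2%) were peak-free, and of 689 loci with clone names 324 (47.0%). Among 10 housekeeping genes only PGK1, a glycolytic kinase, was peak-free. The nearest PGK1 start in the authors' RefSeq list was 38981 bp from the one used here, and a listed start lay under a peak.

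All 15 expressed mitochondrial genes were peak-free by the rule, as the ATAC lists held 0 peaks on the mitochondrial chromosome. They took 16.3, 21.8 and 27.0% of the reads in UBR7KO libraries and 17.7, 21.4 and 25.4% in parental libraries. MT-CO1, a subunit of cytochrome c oxidase, was at 1577, 1986 and 1912 CPM in UBR7KO and 1881, 2022 and 1959 CPM in parental libraries. The most abundant nuclear gene of the set was CTD-2328D6.1, a locus of chromosome X annotated as a pseudogene (108297361 to 108297792 in the table). It was at 57728, 23483 and 136 CPM in UBR7KO and 61289, 54669 and 237 CPM in parental libraries. The low value in each group came from the library without a date in its label, the library labelled KO2 and parental replicate 3. The other peak-free genes together took 5.89 to 7.14% of reads in UBR7KO and 6.05 to 6.98% in parental libraries.

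Peak-free genes were at lower CPM than open ones in every library. Their median over libraries was 6.31 CPM (quartiles 2.13 and 27.3), against 32.7 CPM (12.8 and 70.4) for open genes. By library the medians were 7.65, 6.16 and 4.96 CPM in UBR7KO and 7.70, 5.73 and 4.92 CPM in parental libraries. Those of open genes were 33.9, 32.1 and 30.7 CPM in UBR7KO and 34.9, 30.8 and 31.1 CPM in parental libraries. Among coding genes alone the medians were 11.8 CPM for peak-free and 35.8 CPM for open genes. CPM is not divided by transcript length, so levels were also compared per kilobase for genes whose listed width equals their span, taken as single-exon genes. The listed width exceeds the span in 2188 genes of the table, so its meaning is uncertain. There the median was 2.14 CPM per kb in 290 peak-free genes and 6.36 CPM per kb in 174 open genes, with median lengths of 1570.5 and 1671 bp. The sets differ in make-up, and among their coding genes the medians were 3.01 CPM per kb (52 peak-free) and 7.40 CPM per kb (99 open).

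**Figure D2:**
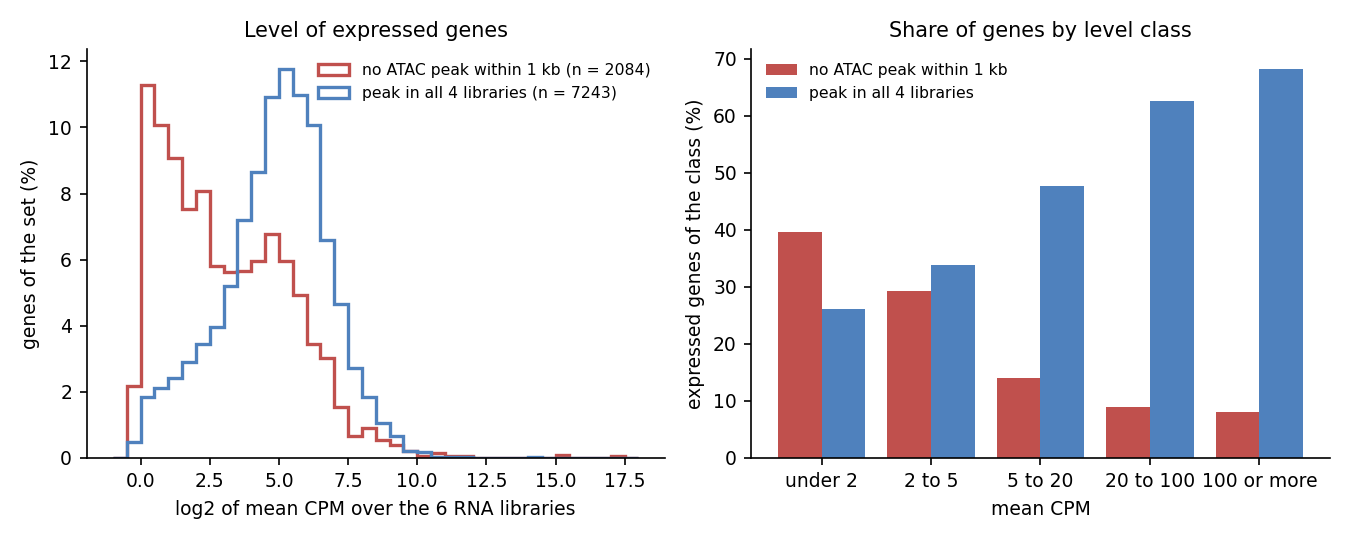
The left panel gives the distribution of log2 mean CPM over the 6 RNA libraries for genes without an ATAC peak at the start and for genes open in all 4 libraries, in percent of each set; the right panel gives the share of expressed genes in each class of mean CPM that fell in either set. The peak-free share is 39.6% under 2 CPM and 8.05% at 100 CPM or more.

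Most peak-free genes were low, but not all. The share of expressed genes that were peak-free was 39.6% under 2 CPM, 29.2% from 2 to 5 CPM, 14.01% from 5 to 20 CPM, 8.96% from 20 to 100 CPM and 8.05% at 100 CPM or more. In the last class were 136 peak-free genes, and a peak overlapped the body of 110 of them (80.9%). EEF1A1, the elongation factor that brings aminoacyl-tRNA to the ribosome, was at 3480, 3436 and 2161 CPM in UBR7KO and 3094, 3556 and 1859 CPM in parental libraries. ACTG1, cytoplasmic gamma-actin, was at 1886, 1244 and 1693 CPM in UBR7KO and 1260, 1242 and 2433 CPM in parental libraries. The ranges of the groups overlapped for both genes. HNRNPH1 had a mean of 909 ± 320 CPM over the UBR7KO libraries and of 964 ± 280 CPM over the parental ones (SD, n = 3 each). Of the 2084 genes 1585 (76.1%) were above 1 CPM in all 6 libraries and 160 in exactly 3, and 0 passed the floor in the UBR7KO libraries alone and 6 in the parental libraries alone.

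Many peak-free starts lay near a peak or in a gene that held one. The nearest peak was 1 to 2 kb away for 324 genes (15.5%), 2 to 5 kb for 492 (23.6%), 5 to 10 kb for 395 (19.0%), 10 to 50 kb for 699 (33.5%) and over 50 kb for 159 (7.63%). The median level was 13.4 CPM in the nearest class and 3.56 CPM in the farthest. Just beyond the 1 kb limit lay BAHD1 (a heterochromatin protein, 1005 bp), PUM2 (an RNA-binding translational repressor, 1009 bp) and ZNF516 (1011 bp), and just within it the genes DNAJC7 (997 bp), FLNC (996 bp) and VCAN (991 bp), which were not counted. A peak overlapped the body of 1316 peak-free genes (63.1%), which had a median of 13.9 CPM and a median span of 52129.5 bp. The 742 genes (35.6%) with no peak in the body or within 1 kb of it had 2.65 CPM and 3977.5 bp, and 313 of them were coding.

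A gene start listed elsewhere by the authors was far from the start used here for most of the genes it covered. Their RefSeq list of 13176 starts is nearly all open (98.8% within 1 kb of a peak). It named a start for 739 peak-free genes (35.5%), against 6747 open genes (93.2%). The nearest listed start was within 1 kb of the one used here for 38 of the 739 (5.14%), at a median distance of 11658 bp, against 95.4% of the open genes, at a median of 20 bp. For 698 of the 739 the nearest listed start was over 1 kb away while a listed start lay within 1 kb of a peak. As nearly all listed starts are open, a peak-free start can seldom lie close to one. These shares thus follow largely from the list and do not show which start is in use. EEF1A1 had its listed start 2764 bp away and RPL4, a protein of the large ribosomal subunit, 19676 bp away, and both genes had a listed start under a peak. Peak-free genes with a listed start had a median of 25.6 CPM, and the 1345 without one 3.23 CPM.

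A smaller group had no peak over the gene or close to it. Outside mitochondria, 300 coding genes had none over the gene or within 1 kb of it, with a median of 3.08 CPM. Of these, 76 were at 10 CPM or more and 6 at 100 CPM or more. SRSF10 (chromosome 1, 24291294 to 24307417) was at 212, 244 and 223 CPM in UBR7KO and 218, 241 and 224 CPM in parental libraries, and its start was 62510 bp from a peak. PNRC2, a factor of mRNA decay that neighbours SRSF10 (chromosome 1, 24285599 to 24289952) and was picked after its values were seen, was at 92.0, 98.9 and 83.7 CPM in UBR7KO and 99.5, 94.0 and 85.7 CPM in parental libraries. In both genes the groups overlapped. SMARCE1, a subunit of the SWI/SNF chromatin remodeller also picked after its values were seen, was at 83.0, 80.2 and 51.4 CPM in UBR7KO and 88.6, 68.6 and 75.1 CPM in parental libraries, with a peak no nearer than 88005 bp to its start.

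Peak-free genes lay in runs in a few places. Chromosome X held 103 among 477 expressed genes (21.6%, exact 95% interval 17.98 to 25.6, for counting error only), chromosome 17 held 178 of 847 (21.0%, 18.3 to 23.9) and chromosome 19 held 181 of 924 (19.6%, 17.1 to 22.3). Chromosome 18 held 17 of 199 (8.54%, 5.06 to 13.3) and chromosome 4 held 48 of 505 (9.50%, 7.09 to 12.4), so that both intervals ended below the start of the other 3.

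**Figure D3:**
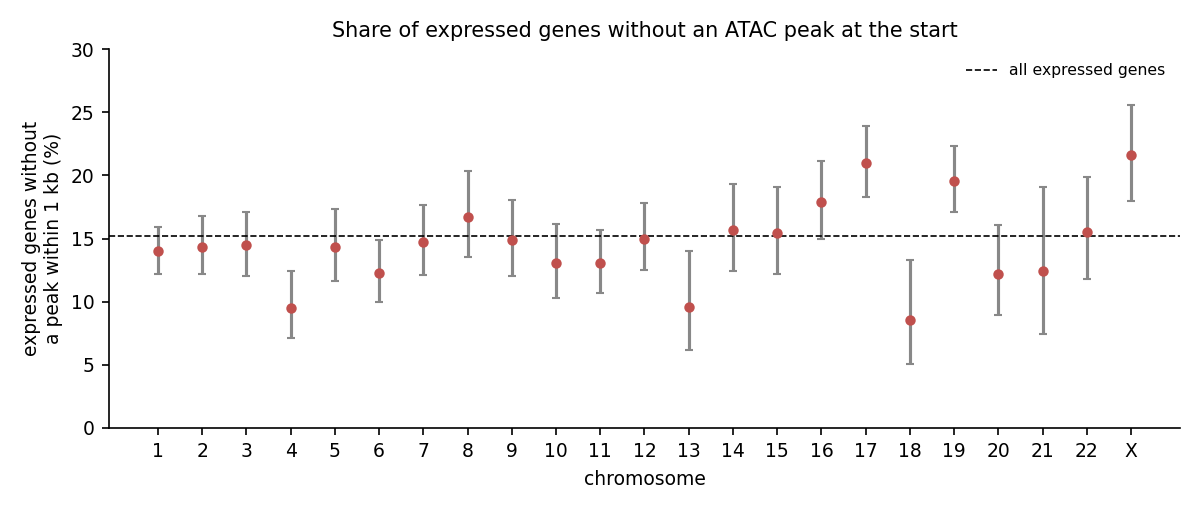
Points give, for each chromosome (x axis), the share of expressed genes that had no ATAC peak within 1 kb of the start, in percent, with the exact 95% interval of the count as bars; the dashed line is the share over all expressed genes. Chromosomes X (21.6%), 17 (21.0%) and 19 (19.6%) stand above the line at 15.2%, and chromosomes 18 (8.54%) and 4 (9.50%) below it.

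The first ATAC peak of chromosome X began at base 2730641 of the table's coordinates. All 10 genes of the table that start before it were expressed and peak-free, and 0 GFP-UBR7 peaks lay there. They include SLC25A6, a mitochondrial ADP/ATP carrier, at 354, 315 and 354 CPM in UBR7KO and 294, 364 and 310 CPM in parental libraries. CD99 was at 125, 208 and 150 CPM in UBR7KO and 103, 184 and 151 CPM in parental libraries. These genes belong to the pseudoautosomal region, which chromosome Y shares. Beyond the stretch 93 of 467 genes of chromosome X (19.9%) were peak-free. Other stretches without a peak held 4 such genes each. HOXC9, HOXC6 and their antisense neighbours HOXC-AS2 and HOXC-AS1 shared one on chromosome 12 (54380144 to 54395445). ZNF84, ZNF140, ZNF605 and ZNF26 shared another on chromosome 12 (133485478 to 133706368). CKMT1B, PPIP5K1, CKMT1A and CATSPER2 shared one on chromosome 15 (43803643 to 44037912), and GTF2H2, SMN1, RP11-195E2.4 and NAIP one on chromosome 5 (69882082 to 70585887). CKMT1A and CKMT1B, mitochondrial creatine kinases, are near-identical copies, as is the region of SMN1, so reads there can match more than one copy, and peaks and levels are uncertain. The same holds for the pseudoautosomal genes.

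Few peak-free genes had a neighbour of the table starting on the opposite strand. Such a start within 1 kb was present for 24 peak-free genes (1.15%), against 2002 open genes (27.6%), and for 1.44% of coding peak-free genes against 25.8% of coding open genes. As most expressed starts have a peak, a neighbouring start so close would often bring a peak with it. The low share thus follows largely from the rule that chose the genes. Position of the start inside another gene of the table was more alike, with 469 genes (22.5%) against 18.6%, and among coding genes 17.8% against 17.4%.

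Promoters of peak-free genes were less often rich in CG. A RefSeq promoter of 300 bases (250 before and 50 after the start, GRCh38.p14) was matched by symbol to 1212 peak-free and 5955 open genes. The ratio of observed to expected CG had a median of 0.74 in peak-free and 0.87 in open genes, and was at least 0.6 in 61.8% of peak-free promoters, 92.0% of open promoters and 49.0% of all 27305 promoters of the table. Where the RefSeq gene and the gene of the RNA table differed in span by at most 5%, the shares were 52.6% of 570 peak-free promoters and 92.3% of 4381 open promoters. The letters TATAAA on either strand were found in 7.51% of peak-free, 4.52% of open and 11.95% of all promoters. The HNRNPH1 sequence above is an instance of a low ratio (0.39) and SRSF10 of a high one (1.05).

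GFP-UBR7 peaks were less frequent at peak-free than at open starts. They lay within 1 kb of 59 of the 2084 starts (2.83%, exact 95% interval 2.16 to 3.64), against 2245 of the 7243 open starts (31.0%, 29.9 to 32.1). The share depended on which ATAC peaks were counted: it was 24.4% with peaks of a −log10 q of at least 5, 10.9% with the authors' replicate-intersected sets and 5.40% without the second UBR7KO ATAC library. Over all expressed genes the share was 24.9%, close to the first of these values. The share of open genes was not recounted under these ATAC settings, so the gap under them is not known. The GFP-UBR7 list comes from 1 ChIP library and has no replicate check. By the rule used here the gap was present at every level. It was 2.04% against 31.1% under 2 CPM and 3.68% against 36.5% at 100 CPM or more. Among coding genes it was 55 genes (3.59%) against 31.1%. By distance of the start from the nearest ATAC peak the share was 5.86% at 1 to 2 kb, 2.64% at 2 to 5 kb, 2.28% at 5 to 10 kb, 2.29% at 10 to 50 kb and 1.26% beyond 50 kb.

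**Figure D4:**
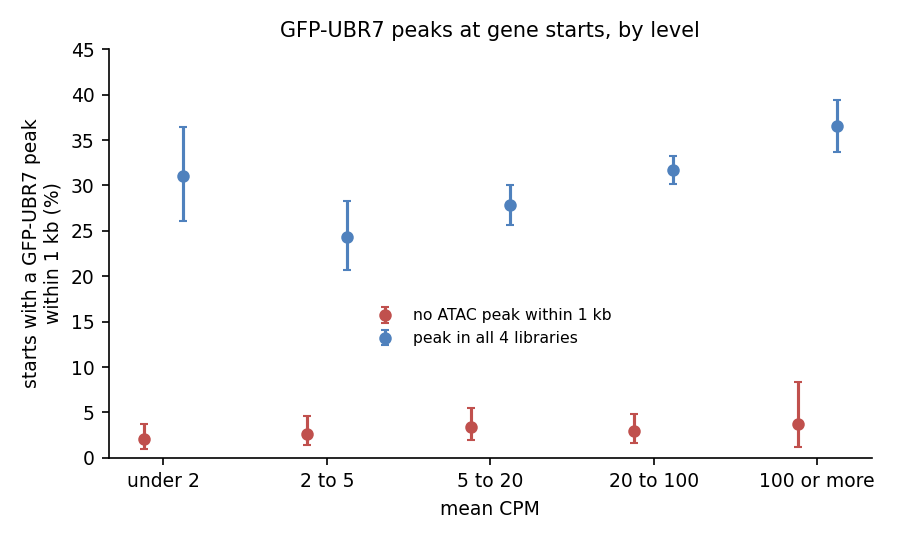
Points give the share of gene starts with a GFP-UBR7 peak within 1 kb (y axis, percent) in each class of mean CPM (x axis), in red for genes without an ATAC peak at the start and in blue for genes open in all 4 libraries; bars are exact 95% intervals of the counts. The red points lie between 2.04 and 3.68% and the blue points between 24.3 and 36.5%.

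The authors' score of the GFP-UBR7 peak at the start had a median of 64.8 at the 59 peak-free starts and 71.7 at open starts, while the highest was 247 (KDM5B) against 1227. KDM5B, a demethylase of histone H3 lysine 4, had its GFP-UBR7 peak 692 bp and its ATAC peak 1095 bp from the start, and was at 141, 140 and 79.4 CPM in UBR7KO and 105, 102 and 102 CPM in parental libraries. SIN3A had a GFP-UBR7 peak 21 bp and HNRNPL 319 bp from the start, with ATAC peaks at 1375 and 1296 bp. RANBP1, a regulator of the GTPase Ran, lay near both limits, with a GFP-UBR7 peak at 984 bp and an ATAC peak at 1029 bp. BRD1, a bromodomain protein of a histone acetyltransferase complex, had a GFP-UBR7 peak at 740 bp and no ATAC peak nearer than 25591 bp. It was at 51.3, 47.6 and 47.129 CPM in UBR7KO and 46.9, 47.126 and 41.0 CPM in parental libraries, so that the ranges nearly touched without overlap.

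Further genes of the 59, named after their values were seen, have varied roles. TBX1, a T-box transcription factor, had a GFP-UBR7 peak over the start and an ATAC peak at 23698 bp, and was at 25.0, 28.1 and 39.4 CPM in UBR7KO and 23.4, 28.8 and 34.7 CPM in parental libraries. MKX, a homeobox factor, had a GFP-UBR7 peak at 91 bp and an ATAC peak at 37713 bp. PRDM16, a zinc finger factor of the PR domain family, had them at 308 and 56465 bp. WNT3A, a secreted Wnt ligand, had a GFP-UBR7 peak over its start and an ATAC peak at 7472 bp. VEGFB, a vascular growth factor, had a GFP-UBR7 peak at 561 bp and an ATAC peak at 3597 bp, and CACNA1H, a calcium channel subunit, had them at 339 and 46695 bp. The histone genes HIST1H2AE and HIST1H2BG, whose starts lie side by side on opposite strands, shared one GFP-UBR7 peak. Of the 40 promoters matched among the 59 genes 87.5% had a CG ratio of at least 0.6, against 60.9% of the other peak-free promoters matched.

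The RNA of peak-free genes in UBR7KO against parental cells was compared on log2(CPM + 1) with limma over all 13697 genes. With all 3 libraries a group, 0 genes passed an adjusted p of 0.05 by limma (0% of all genes). At an unadjusted p under 0.05 limma listed 21 peak-free genes (1.01%), against a background of 0.511% of all genes and 0.249% of open genes. DESeq2 on the recovered reads called 4 peak-free genes, against 0.0511% of all genes, or 7 in all, and 0 open genes. They were UNCX, higher in UBR7KO, and SFRP1, SNX19 and ZNF883, lower in UBR7KO. With the library pair as a block limma called none of these 4, the adjusted p being 0.0593 for UNCX, SFRP1 and SNX19 and 0.194 for ZNF883, and in edgeR's quasi-likelihood test with the block it was between 0.0598 and 0.128. The authors' deposited table called 6 genes (0.0423% of 14177), of which SFRP1, SNX19 and ZNF883 were peak-free and 0 open. In the authors' deposited table the log2 fold change was −4.17 for SFRP1 (adjusted p = 1.34e-05), −2.45 for SNX19 and −2.86 for ZNF883 (adjusted p = 0.00622 for both). The median limma log2 change was 0.01 over peak-free genes and 0.01 over all genes tested.

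In these 4 genes the UBR7KO library was on one side of its parental partner in all 3 pairs, by at least 2 times on the log2(CPM + 1) scale. UNCX, a homeobox transcription factor, was at 22.8, 15.9 and 11.2 CPM in UBR7KO and 8.61, 3.43 and 3.91 CPM in parental libraries (DESeq2 log2 change 1.64 ± 0.39 SE, adjusted p = 0.0472). SNX19, a sorting nexin, was at 1.14, 0.745 and 0.537 CPM in UBR7KO and 6.60, 3.43 and 3.16 CPM in parental libraries (DESeq2 log2 change −2.46 ± 0.48 SE, adjusted p = 0.000989). SFRP1, a secreted inhibitor of Wnt signalling, was at 0.189, 0.0392 and 0.168 CPM in UBR7KO and 2.52, 2.75 and 2.13 CPM in parental libraries (DESeq2 log2 change −4.22 ± 0.69 SE, adjusted p = 1.52e-05). The groups did not overlap in any of the 4 genes, and the second SFRP1 value in UBR7KO was under the level of 3 reads. SFRP1 and ZNF883 passed the floor of 1 CPM in the parental libraries alone. For both, the floor thus fixed the direction and the lack of overlap, which add no support. ZNF883, annotated as a lincRNA in the table, was at 0.341, 0.510 and 0.268 CPM in UBR7KO and 1.90, 2.53 and 3.47 CPM in parental libraries (DESeq2 log2 change −2.87 ± 0.59 SE, adjusted p = 0.00228). The library labelled KO2, whose UBR7 RNA was at the parental level, was on the side of KO1 in each of these 4 genes. They were picked by calls over all libraries, that one included, which favours agreement between the pairs.

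KO1 was also set against the 2 parental libraries with the same date codes, which the comparison of all libraries uses too. Limma without the date pairs called 0 genes at an adjusted p of 0.05 (0% of all genes), and listed 57 peak-free genes (2.74%) at an unadjusted p under 0.05, against 1.59% of all and 0.939% of open genes. A limma fit that also took the date pair as a block called 103 peak-free genes (4.94%), against 3.58% of all and 2.73% of open genes. Of these, 60 (2.88%) were higher in KO1, against 2.23% of all genes, and 43 (2.06%) lower, against 1.36% of all genes. With TMM scaling in the same fit the split was 41 higher and 48 lower among peak-free genes and 207 and 209 over all genes, so more calls upwards than downwards depended on the scaling. The block fit leaves 1 residual degree of freedom and draws its error mainly from the spread shared by all genes. The share called was above that of open genes at every level. Genes open in 1 to 3 libraries were not counted apart here. A higher share than that of open genes is thus not shown to be particular to peak-free genes. Under 2 CPM it was 2.86%, against 0% of open and 1.78% of all expressed genes. At 100 CPM or more it was 8.09%, against 4.25% of open and 4.73% of all expressed genes.

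Among the genes called in KO1 with the block, the 10 largest rises and 10 largest falls were named. SYTL5, an effector of vesicle traffic, rose to 30.5 and 33.8 CPM in KO1 and was at 7.00 and 6.55 CPM in the parental libraries of the same dates (log2 change 2.09 ± 0.16 SE, limma adjusted p = 2.35e-08). COL6A3, a chain of collagen VI, was at 7.99 and 3.69 CPM in KO1 and 1.75 and 0.316 CPM in those parental libraries (log2 change 1.77 ± 0.21, limma adjusted p = 1.35e-05). The ranges of the 2 groups did not overlap in either gene. CTSZ, a lysosomal cathepsin, fell to 0.152 and 0.235 CPM in KO1 and was at 6.53 and 13.1 CPM in the parental libraries (log2 change −3.11 ± 0.22, limma adjusted p = 1.57e-08). GSPT2, a translation termination factor, was at 0.0379 and 0.0392 CPM in KO1, a level under that of 3 reads, and at 2.26 and 1.85 CPM in the parental libraries. The other rises were UNCX, MXRA8, PHKA2-AS1, MLLT11, PCK1 (the gluconeogenic carboxykinase), HLA-DPA1, TMEM59L and APOE (the lipid carrier), with log2 changes between 0.98 and 1.62. The other falls were SFRP1, RP11-96D1.11, SNX19, ZNF883, ZNF468, KCNAB3, ENPP2 (autotaxin) and ZNF836, with log2 changes between −1.71 and −0.91.

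**Figure D5:**
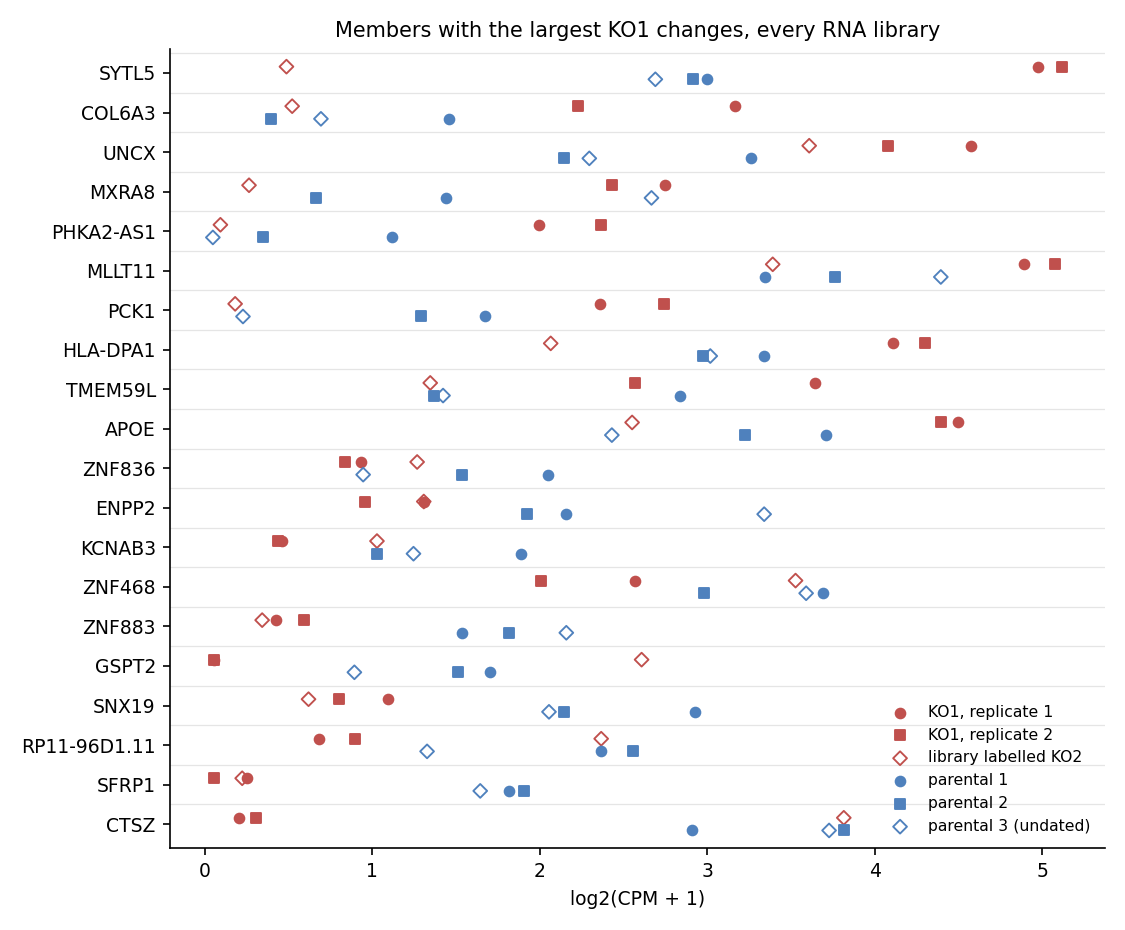
Points give log2(CPM + 1) on the x axis in every RNA library for the 10 largest rises and 10 largest falls among peak-free genes called in KO1 (y axis, ordered by the KO1 change), by group and line. Within each date KO1 lies to one side of its parental library in every gene, and the point of the library labelled KO2 lies with its undated parental partner or beyond it in several, SYTL5 (0.403 CPM) and CTSZ (13.1 CPM) among them.

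In the called genes the library labelled KO2 lay on either side of its parental partner. Of the 60 rises 25 were higher and 35 lower in the library labelled KO2 than in its undated parental partner, and of the 43 falls 23 were higher and 20 lower there. The same split over all genes called in KO1 was not counted, so it is not shown to be a trait of peak-free genes. SYTL5 was at 0.403 CPM in that library, against 5.46 CPM in its parental partner, and CTSZ at 13.1 against 12.3 CPM. The calls were also uneven over chromosomes. On chromosome 1, 16 peak-free genes were higher in KO1 and 0 lower, and over all genes of chromosome 1 it was 94 and 8, with a median log2 change of 0.12. On chromosome 16, 1 peak-free gene was higher and 6 lower, against 6 and 11 over all genes of that chromosome. The part of such chromosome-wide differences in the calls was not tested.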

How the data were processed

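RNA-seq (6 libraries), ATAC-seq (4) and GFP-UBR7 ChIP-seq (1 with its input) were used; 6 CUT&RUN samples were not used here. The deposited RNA table gives CPM per gene and library, made by the authors with TopHat2 2.1.0, HTSeq 0.6.1 and edgeR per the submitters' processing notes; it also holds the authors' log2 fold changes and adjusted p-values per gene. The deposited ATAC broad peak lists, 1 per library, give a −log10 q per peak, and the authors' GFP-UBR7 peak list gives a score per peak; the notes name MACS2. Alignment with Bowtie2 2.3.1 is named for the series in the same notes. The notes name hg19 and hg38; of 7461 genes with a RefSeq promoter and alike span only 4.54% started within 1 kb of the GRCh38.p14 start, so table and peaks were kept in the coordinates of the files and RefSeq sequences were joined by symbol alone.

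The genes, families and lists were chosen with earlier results of these data known. Library sizes were recovered from the spacing of low CPM values; 100.0% of values then came out whole within 1e-06 reads, so CPM could be turned back into reads for edgeR and DESeq2. Groups were compared with limma 3.58.1 on log2(CPM + 1), with trend and robust settings, over 13697 genes, with Benjamini-Hochberg adjustment at 0.05. Alternatives were edgeR 4.0.16 (quasi-likelihood), DESeq2 1.42.0, TMM and size-factor scaling, a pseudocount of 0.1, no floor, the date pair as a block, other windows, floors and peak sets, and each library left out. The fits were tested on simulated counts. Date codes in the labels pair KO1 and parental libraries, and the 2 libraries without a date were taken as a pair. Deviations from the group means correlated at 0.758, 0.736 and 0.633 within pairs and at −0.443 to −0.251 between pairs, so the fit with the pair as a block is given beside the main one. Named genes are the 15 highest by CPM; the top 3 of each biotype; the top 5 of each family; the 10 largest rises and falls called; the 8 highest with a GFP-UBR7 peak; 3 to either side of the 1 kb limit; and the 15 highest coding genes with no peak over the gene. Intervals are exact (Clopper-Pearson, 95%) and cover counting error only. Genes not named include some that these rules select. Some marker genes are not reported here.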

Additional observations from a re-analysis of the deposited data

Results flagged for a closer look

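In 8 of the 20 peak-free genes named for their change in KO1, the change in the undated pair (the library labelled KO2 against parental replicate 3) differed from that in KO1 in a limma interaction fit over all genes, given here as the undated change minus the KO1 change on the log2(CPM + 1) scale. It was lower in the undated pair by −4.29 for SYTL5 (adjusted p = 2.59e-09), −3.94 for MXRA8 (1.14e-07), −2.43 for MLLT11 (1.18e-06), −2.00 for HLA-DPA1 (0.000318) and −1.94 for COL6A3 (0.00161). It was higher by 3.27 for GSPT2 (adjusted p = 1.91e-06), 3.20 for CTSZ (4.86e-06) and 2.71 for RP11-96D1.11 (2.27e-05). The KO2 line, its single library and the undated preparation cannot be told apart. The undated pair is 1 library against 1, assumed to vary like the KO1 pairs, which with all other genes supply the spread (1 residual degree of freedom), so these p-values have no replicate check in the undated pair. The 20 genes were picked for a large change in KO1, which favours a difference from any other pair. The share of all genes that differed in this fit was not counted here, so the count above has no background.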

How the results depend on the processing

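The 2084 peak-free genes became 1268 with a window of 5 kb, 11382 with peaks of a −log10 q of at least 5, 3823 with the authors' replicate-intersected peak sets, 742 with no peak over the body or 1 kb around it, 1369 when the authors' starts were also used, 1140 above 5 CPM and 891 at 10 CPM or more; leaving out 1 ATAC library gave 2090 to 2463. The share of them with a GFP-UBR7 peak was 5.53% with an ATAC window of 500 bp, 2.13% with 5 kb, 24.4% with peaks of a −log10 q of at least 5, 10.9% with the replicate-intersected sets, 2.16% with a GFP-UBR7 window of 500 bp, 11.3% with 5 kb, 1.44% with the higher-scoring GFP-UBR7 peaks, and 2.87 to 5.40% with 1 ATAC library left out, the last without UBR7KO replicate 2. Open genes had 27.2, 32.7 and 18.8% under the 3 GFP-UBR7 settings and were not recounted under the ATAC settings. In the comparison of all libraries DESeq2 called 4 peak-free genes, TMM with the replicate block 3, and the block alone 0; leaving out a library gave 0. In KO1, DESeq2 called 6, the replicate block 103, edgeR quasi-likelihood with the block 98 and TMM with the block 89, the last 2 fits chosen after seeing the data; leaving out a library gave 1 to 8, and the cause was not tested. The other settings called 0. None of the 20 genes named for their KO1 change and the 4 named for the comparison of all libraries changed direction in these settings; other named genes were not followed.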
